A study of Mus musculus with 17 samples.

Results

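Histones are the proteins around which DNA is wound, and their genes were followed here in distant, non-ablated MC38 tumors of mice whose other tumor had been frozen. The histone genes were taken by name: every gene called H1f with a digit, H2ac, H2ax, H2az, H2bc, H2bu, H3c, H3f, H4c, H4f or Macroh2a was a member. This gave 78 of the 21931 genes in the deposited table. They were grouped by name alone. There were 11 linker histone genes (H1f), 59 replication-dependent core histone genes (H2ac, H2bc, H2bu, H3c and H4c) and 8 genes grouped as variants (H2ax, H2az, H3f, H4f and Macroh2a). H1f10 was the reason for looking at these genes, because it was among the most raised genes in the cryoablation group. It was chosen by its fold change between the groups compared here, so that change is described without a test.

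MC38 is a mouse colon cancer line, and tumors grew under the skin on both sides of C57BL/6J mice labelled WT and aged 6 to 8 weeks. In the cryoablation group 1 tumor was frozen on day 7, and the contralateral tumor was taken 5 days later. The labels give cycles of 20 s and the methods cycles of 40 s. RNA-seq covered 9 control and 8 cryoablation tumors, 1 library each, and no source used here says that the control mice had a sham procedure. These group sizes come from the sample labels, which were followed throughout. The text of the paper gives the sizes of the groups the other way round. MC38 is a single line, and each library held bulk tumor with its host cells. Fewer cells of a type and less RNA per cell therefore cannot be told apart in these values.

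In chromatin, pairs of H2A, H2B, H3 and H4 form the core particle, and a linker histone H1 binds where DNA enters and leaves it. Genes of core histones and of most H1 subtypes are transcribed in S phase, when DNA is copied. Their mRNAs usually end at a stem-loop instead of a poly(A) tail, and mRNA capture by the tail misses such transcripts. H1f0 encodes H1.0, which accumulates in cells that stop dividing, and H1f10 encodes H1.10, also called H1x. Some variant genes, such as H3f3a and H3f3b for H3.3, are expressed through the cell cycle with ordinary polyadenylated mRNAs.

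A histone stem-loop, searched as a 16-base site in the longest GENCODE M21 transcript of each member, was found in 43 of the 78 genes. It was found in 37 core, 4 linker and 2 variant members. A site lying beyond the end of an annotated transcript would be missed. Several core transcripts without a match are short, such as those of H4c12 (312 bases) and H2ac13 (393 bases). A member without a match may therefore still carry the site. The site took 8 forms, of which the most frequent was shared by 24 members, H1f2, H1f3, H1f4 and H3c4 among them. H4f16, grouped as a variant by its name alone, carried the same form as core H4 genes such as H4c4 and H4c8. The sequences below show the site in capitals with 5 bases on either side, for members whose values are described further on. They lie in exons on GRCm38: H1f2 at chr13:23739507-23739532 (+), H3c4 at chr13:23576239-23576264 (+), H3c3 at chr13:23745042-23745067 (-), H4c9 at chr13:22040961-22040986 (-) and H2ax at chr9:44335235-44335260 (+).
H1f2: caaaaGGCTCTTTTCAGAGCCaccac
H3c4: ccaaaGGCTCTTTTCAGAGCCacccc
H3c3: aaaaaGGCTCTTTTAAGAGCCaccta
H4c9: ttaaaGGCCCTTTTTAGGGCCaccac
H2ax: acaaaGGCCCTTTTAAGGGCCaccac
The annotated transcript ran 840 bases beyond this site in H1f2, 752 in H3c4, 330 in H4c9 and 822 in H2ax, but 74 in H3c3. No match was found in the transcripts of H1f10 or H1f0.

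The start regions of the linker genes are shown because H1f10 and H1f0 differ in sequence from the clustered H1 genes. RefSeq promoters (GRCm38.p6, 250 bases before to 50 after the start) were matched by symbol for 70 of the 78 members, in 71 windows. Capitals mark motifs searched on either strand. The CCAAT box is bound by NF-Y in many S-phase promoters. The TATA box was searched as TATAAA, and separately in the form TATATA, which can overlap the first. The H1 box was searched as AAACACA. The windows are H1f10 at chr6:87981433-87981732 (-), H1f0 at chr15:79027962-79028261 (+), H1f2 at chr13:23738557-23738856 (+) and H1f3 at chr13:23554782-23555081 (+).
H1f10: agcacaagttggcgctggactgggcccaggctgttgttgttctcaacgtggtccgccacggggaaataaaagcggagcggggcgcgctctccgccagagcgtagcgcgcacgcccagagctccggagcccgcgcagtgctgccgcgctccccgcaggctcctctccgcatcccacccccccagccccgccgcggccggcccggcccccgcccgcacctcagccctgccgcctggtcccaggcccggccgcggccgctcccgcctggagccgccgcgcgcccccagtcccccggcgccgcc
H1f0: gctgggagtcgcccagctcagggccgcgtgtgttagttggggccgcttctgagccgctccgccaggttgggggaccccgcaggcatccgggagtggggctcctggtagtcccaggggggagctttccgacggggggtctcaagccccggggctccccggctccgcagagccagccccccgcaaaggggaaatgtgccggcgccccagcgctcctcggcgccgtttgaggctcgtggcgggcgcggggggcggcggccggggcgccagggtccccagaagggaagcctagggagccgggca
H1f2: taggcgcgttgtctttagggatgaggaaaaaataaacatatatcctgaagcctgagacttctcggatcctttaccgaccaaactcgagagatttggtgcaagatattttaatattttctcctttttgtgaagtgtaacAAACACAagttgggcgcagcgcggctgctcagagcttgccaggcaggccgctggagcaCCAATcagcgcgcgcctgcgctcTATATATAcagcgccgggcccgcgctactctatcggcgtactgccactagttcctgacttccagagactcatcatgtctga
H1f3: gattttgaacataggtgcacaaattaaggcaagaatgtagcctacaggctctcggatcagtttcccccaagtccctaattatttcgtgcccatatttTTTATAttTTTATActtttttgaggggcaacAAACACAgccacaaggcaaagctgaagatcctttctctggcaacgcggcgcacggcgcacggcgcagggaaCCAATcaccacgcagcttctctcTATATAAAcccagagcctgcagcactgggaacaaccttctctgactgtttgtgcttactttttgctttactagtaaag
AAACACA was found in 5 of the 10 linker promoters, those of H1f2, H1f3, H1f4, H1f5 and H1f6, and in 7.18% of all 32851 promoters. CCAAT was found in 58 of the 71 member promoters (81.7%) and in 37.4% of all promoters. TATAAA was found in 36 (50.7%) against 13.6%, and TATATA in 16 (22.5%) against 5.67%. The H1f10 and H1f0 windows held none of these letters. Their GC content was 77.7% and 75.0%, at or above which lay 2.08% and 3.91% of all promoters. The H1f10 transcript was also GC-rich, at 71.3%, a value reached by 2 of the 12981 tested genes with a GC value.

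Library totals ranged from 13524899 to 17898672 counts per tumor, and 3 counts corresponded to 0.168 to 0.222 CPM. In 10 members no read was counted in any tumor, and 13 members had at most 3 counts in every tumor. Of the 78 members, 36 passed the filter on low counts and were tested. A member could pass through the tumors in which it is high, so the tested members do not stand for all 78. Reads from nearly identical core histone copies may be divided among the copies in a way the sources used here do not describe, which makes single core genes uncertain.

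Cryoablation replicates 2, 4 and 5 stood apart from the rest. Their counts leaned most toward short genes, with length slopes of -0.30, -0.27 and -0.39 log2 units per doubling of gene length, against -0.17 to 0.20 in control tumors. They also had the 3 highest H1f10 levels of all tumors. The main results are therefore given with and without them. As these are also the tumors with the most H1f10, a smaller H1f10 difference without them follows in part from the choice.

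FPKM, which divide by gene length and library total, were used to set levels of different genes side by side. The most abundant member was H3f3b, which encodes the replacement histone H3.3, at a mean of 585 FPKM over the 17 tumors (445 to 708). H1f0 followed at 332 FPKM (244 to 537). H2az1, which encodes the H2A.Z variant found at promoters, stood at 308 FPKM (234 to 406). The range of H1f0 over the tumors overlapped those of both H3f3b and H2az1. H3f3a (137 FPKM), H2ax (97.7), H1f2 (83.0), H2bc4 (61.6), H2az2 (53.5), H4c9 (40.4), Macroh2a1 (14.7) and Macroh2a2 (11.5) completed the 11 members of at least 10 FPKM. H2ax encodes H2A.X, which is phosphorylated at DNA breaks, and the Macroh2a genes encode macroH2A, enriched on silent chromatin.

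The core genes were mostly low. Of the 59, only H2bc4 and H4c9 reached 10 FPKM, and the median core gene had 0.607 FPKM. The highest core H2A gene was H2ac8 at 6.04 FPKM and the highest core H3 gene was H3c3 at 2.97 FPKM. H1f10 stood at 7.21 FPKM (2.06 to 27.0). Of the 11 members of at least 10 FPKM, 8 had no stem-loop match in their annotated transcript. The 3 others, H1f2, H2ax and H4c9, had transcripts running over 100 bases beyond the site. The 21 members whose transcript ended within 100 bases of the site reached at most 3.34 FPKM, with a median of 0.703. A transcript that ran on was not in itself a high one, since the 22 such members had a median of 0.579 FPKM. FPKM depend on the listed gene length, and these figures are descriptive.

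**Figure D1:**
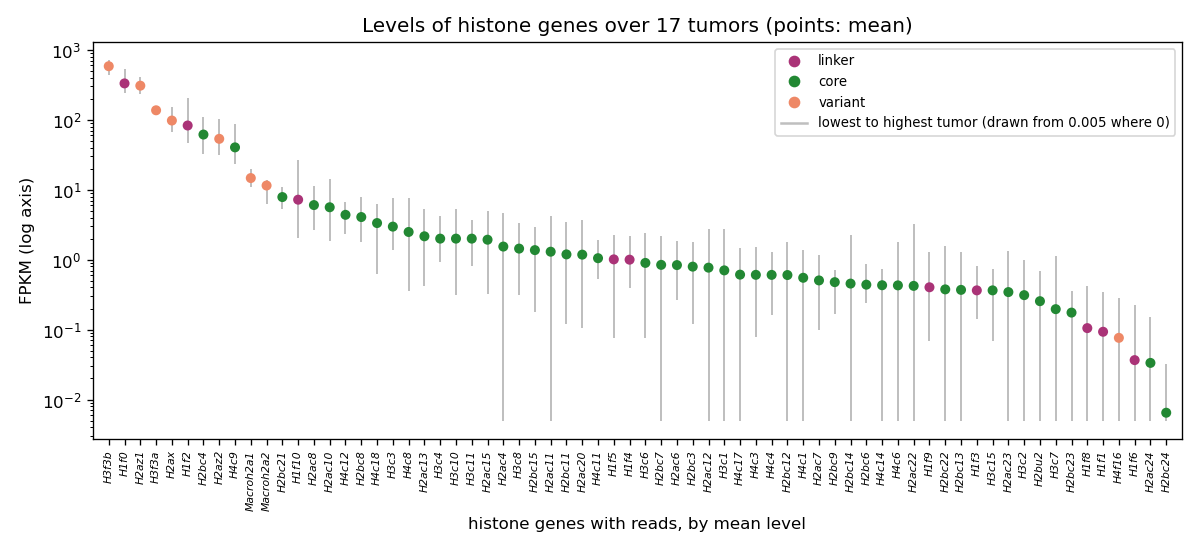
Mean FPKM (log axis) of the 68 histone genes with reads over 17 tumors, in order of level, coloured by class. Lines run from the lowest to the highest tumor. 7 of the 8 variant genes lie at 11.5 FPKM or more, while most core genes lie under 7 FPKM.

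The first comparison asked how the linker histones differed between distant tumors of cryoablated and control mice. H1f10 was at 2.37, 4.99 and 9.19 TMM-normalized CPM in the lowest, median and highest control tumor. In the cryoablation tumors it was at 2.67, 7.93 and 37.1 CPM. Replicates 2, 4 and 5, at 20.6, 37.1 and 26.6 CPM, lay above every control tumor, and the other 5 cryoablation tumors lay within the control range. The group means were 5.20 ± 2.57 (SD, n = 9) and 14.2 ± 12.5 CPM (SD, n = 8). The log2 fold change was 1.44 (standard error 0.46), the value on which H1f10 was chosen. Without cryoablation replicates 2, 4 and 5 it was 0.16 (standard error 0.35). It was 0.48 when limma voom gave tumors quality weights, and 0.90 once trends with length and GC content were removed.

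H1f0, the most abundant linker gene, was at 455, 615 and 771 CPM in the lowest, median and highest control tumor and at 593, 725 and 1250 CPM in the cryoablation tumors. 7 of the 8 cryoablation tumors were above the control median, and the groups overlapped. The log2 fold change was 0.36 (standard error 0.14, unadjusted p = 0.0205, adjusted p = 0.728 by edgeR's quasi-likelihood test, exact permutation p = 0.0197). Without cryoablation replicate 4 alone, the tumor at 1250 CPM, it was 0.23 (unadjusted p = 0.0558), and without replicates 2, 4 and 5 it was also 0.23 (unadjusted p = 0.0841).

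H1f2, which encodes the S-phase subtype H1.2, was at 70.5, 104 and 154 CPM in controls and at 69.7, 150 and 321 CPM after cryoablation. The highest value was that of cryoablation replicate 8, not one of the 3 tumors that stood apart. Its log2 fold change was 0.64 (standard error 0.24, unadjusted p = 0.0152, exact permutation p = 0.0427), and 7 of 8 cryoablation tumors exceeded the control median. Without replicate 8 it was 0.41 (unadjusted p = 0.0557), and without replicates 2, 4 and 5 it was 0.71 (unadjusted p = 0.0230).

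H1f3, which encodes H1.3, was at 0.986, 1.91 and 4.11 CPM in controls and at 1.76, 3.37 and 5.97 CPM after cryoablation. Its log2 fold change was 0.70 (standard error 0.31, unadjusted p = 0.0343, exact permutation p = 0.0395). Without replicates 2, 4 and 5 it was 0.58, with an unadjusted p of 0.132, and without replicate 8 alone it was 0.54 (unadjusted p = 0.0954). With length offsets it was 0.80, and of the members other than H1f10 it alone then had an unadjusted p under 0.05. H1f5 and H1f4 had values of 0.41 (unadjusted p = 0.432) and 0.02 (unadjusted p = 0.97). H1f4 turned to -0.85 without replicates 2, 4 and 5 (unadjusted p = 0.0547). H1f8 and H1f9, germ-cell subtypes, reached at most 9 and 16 counts in a tumor. H1f1 and H1f6 reached at most 4 and 3 counts. H1f7 had 0 counts in all 17 tumors, which allows up to 0.222 CPM at the depth of the shallowest tumor.

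**Figure D2:**
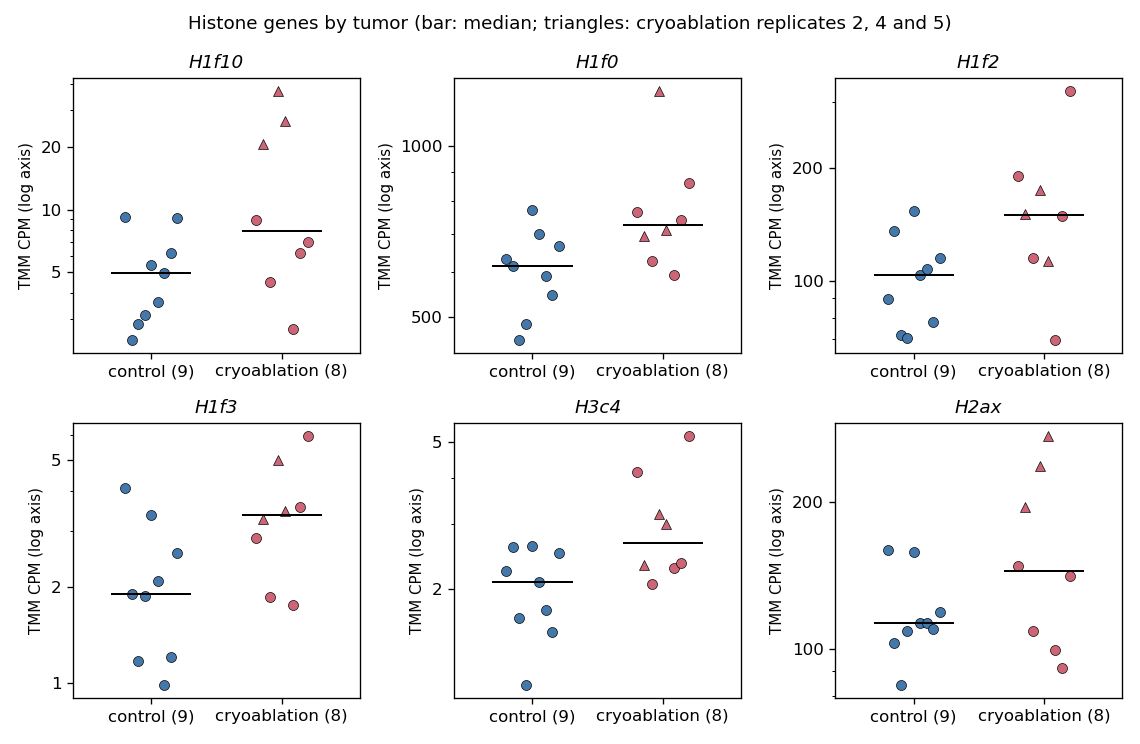
TMM-normalized CPM (log axis) of 6 histone genes in 9 control and 8 cryoablation tumors, with each point a tumor and each bar the group median. Triangles are cryoablation replicates 2, 4 and 5, which lie above every control tumor for H1f10 and H2ax but not for H1f2.

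Among the 35 tested members other than H1f10, 6 had an unadjusted p under 0.05 (H1f0, H1f2, H1f3, H2ax, H3c4 and H4c12), and all 6 were higher after cryoablation. Over all 13005 genes tested, 639 had such a p, or 4.91%, and 3.74% had it with a higher level after cryoablation. None of the 35 passed the rule the study used for calling a gene, a change of more than 1 log2 unit in either direction at an unadjusted p under 0.05, which 64 of all genes (0.492%) did. No gene passed an adjusted p of 0.05 in edgeR (0 of 13005, 0%), DESeq2 or limma voom. The smallest adjusted p of a member other than H1f10 was 0.728 in edgeR, 0.677 in DESeq2 and 0.414 in limma voom. A log2 fold change above 0 was seen in 30 of the 35 members, against 48% of all genes, with a median of 0.41 against -0.01.

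Without replicates 2, 4 and 5 this lean was absent: 18 of 37 members were above 0 and their median was -0.01. H1f2, H3c4 and H2ac20 then had an unadjusted p under 0.05, and H2ac20, a core H2A gene, was lower (log2 fold change -1.55, unadjusted p = 0.043). The count of members under an unadjusted p of 0.05 also rested on single tumors. It rose to 11 without control replicate 1 and fell to 2 without cryoablation replicate 4, and it was 3 without control replicate 2, 3, 4 or 7. With length offsets it was 1 and the median was 0.10. For these refits the share of all genes with such a p was not counted, so the counts cannot be set against all genes.

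**Figure D3:**
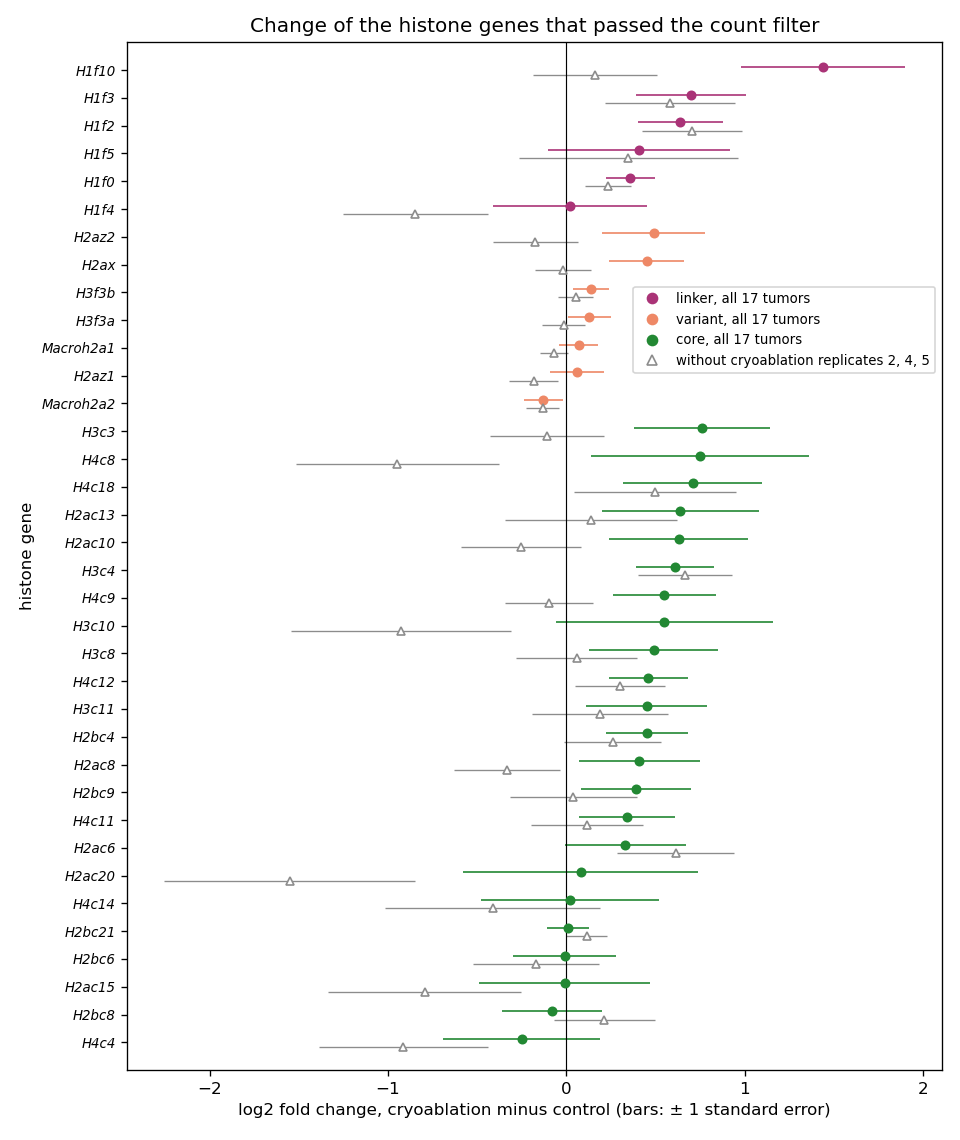
Log2 fold change (cryoablation minus control, ± 1 standard error) of the 36 tested histone genes over all 17 tumors (coloured circles) and without cryoablation replicates 2, 4 and 5 (open triangles). H1f10 moves from 1.44 to 0.16 and H4c8 from 0.75 to -0.95, while H1f2 and H3c4 are at 0.71 and 0.67 without these tumors. Leaving out replicate 8, not drawn here, brings H1f2 to 0.41.

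The 5 tested core H3 genes had a median of 0.55, and all of them were above 0. Without replicates 2, 4 and 5 the median was 0.06 and 3 of the 5 were above 0. H3c4, one of several genes for replication-dependent H3, was at 1.10, 2.09 and 2.61 CPM in the lowest, median and highest control tumor and at 2.07, 2.67 and 5.19 CPM after cryoablation. 4 cryoablation tumors lay above all controls and none lay below. Its log2 fold change was 0.61 (standard error 0.22, unadjusted p = 0.0133, exact permutation p = 0.0124), and it was 0.67 without replicates 2, 4 and 5 (unadjusted p = 0.0228). H3c3 had the largest value of the group, 0.76 (standard error 0.38, unadjusted p = 0.0595), which became -0.11 without those tumors. The smallest H3 value was that of H3c11, 0.45 (unadjusted p = 0.202), and 0.19 without them.

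Of 7 tested H4 genes 6 were above 0, with a median of 0.46. Without replicates 2, 4 and 5 it was 3 of 7, with a median of -0.10. H4c9, by far the most abundant of them, was at 15.2, 21.9 and 43.5 CPM in controls and at 17.7, 31.2 and 71.7 CPM after cryoablation. Its log2 fold change of 0.55 (standard error 0.29, unadjusted p = 0.0742) became -0.10 without replicates 2, 4 and 5. H4c12 had 0.46 (standard error 0.22, unadjusted p = 0.0472, exact permutation p = 0.0259), with 7 of 8 cryoablation tumors above the control median and levels of only 0.659 to 2.22 CPM. It was 0.30 without the 3 tumors (unadjusted p = 0.246). H4c8 had the largest value, 0.75 (unadjusted p = 0.234), and H4c4 the smallest, -0.25 (unadjusted p = 0.576). Without the 3 tumors they were at -0.95 and -0.91, with standard errors of 0.57 and 0.47.

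The 6 tested core H2A genes had a median of 0.37, which was -0.29 without replicates 2, 4 and 5. With all 17 tumors none of them had an unadjusted p under 0.05, from H2ac13 at 0.64 (unadjusted p = 0.165) to H2ac15 at -0.01 (unadjusted p = 0.989). H2ac8, the most abundant of them, had 0.41 (unadjusted p = 0.241). The 5 tested H2B genes had a median of 0.01, and of 0.11 without those tumors. Over all tumors the H3 median was thus the highest of the 4 core families, and without replicates 2, 4 and 5 the H2B median was. H2bc4, the most abundant core gene, was at 41.2, 59.0 and 109 CPM in controls and at 34.7, 94.4 and 125 CPM after cryoablation, with a log2 fold change of 0.45 (standard error 0.23, unadjusted p = 0.0685), and of 0.26 without replicates 2, 4 and 5. H2bc8 had the smallest value, -0.08 (unadjusted p = 0.788).

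Among the variants, H2ax was at 84.4, 113 and 160 CPM in the lowest, median and highest control tumor and at 91.7, 144 and 274 CPM after cryoablation. As for H1f10, 3 cryoablation tumors lay above all controls, and they were replicates 2, 4 and 5. Its log2 fold change of 0.45 (standard error 0.21, unadjusted p = 0.0438, exact permutation p = 0.117) became -0.02 without them. H2az2 had the largest variant value, 0.49 (unadjusted p = 0.106), which became -0.17. H3f3b, the most abundant member, was at 1450, 1670 and 2030 CPM in controls and at 1550, 1770 and 2380 CPM after cryoablation, with 0.14 (standard error 0.10, unadjusted p = 0.184). Macroh2a2 had the smallest value, -0.13 (standard error 0.11, unadjusted p = 0.244), with 3 cryoablation tumors below every control.

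Summed per tumor, the variants gave 1190 ± 95.6 FPKM in controls (SD, n = 9) and 1230 ± 152 after cryoablation (SD, n = 8). The linker genes without H1f10 gave 374 ± 56.7 and 468 ± 121 FPKM, and the core genes 154 ± 43.0 and 191 ± 53.6 FPKM. The highest linker sums were those of cryoablation replicates 4 and 8, at 639 and 632 FPKM, and the highest core sum was that of replicate 4, at 256 FPKM. The group ranges overlapped in all 3 classes. Over the other 5 cryoablation tumors, without replicates 2, 4 and 5, the sums were 1190 ± 109 FPKM for the variants, 480 ± 104 for the linker genes and 163 ± 45.9 for the core genes (SD, n = 5).

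The levels of the members went with the length trend of the tumors. The 5 tumors with the lowest length slopes, cryoablation replicates 2, 4 and 5 and control replicates 1 and 5, were also the 5 in which the tested members without H1f10 lay highest, with median deviations of 0.56, 0.55, 0.80, 0.56 and 0.37 log2 units from each gene's mean. The tested members had a median length of 1186.5 bases, against 4467 for all genes tested, and 30 of the 36 were among the shortest 20% of genes (at most 2520 bases). That share of genes had a median log2 fold change of 0.20. Intronless genes made up 28 of the 36 members and 5.57% of all tested genes, whose 723 intronless genes had a median of 0.08.

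Over the 17 tumors, H1f10 went against the length slope (Spearman rho -0.76, Pearson r -0.84) and with the GC slope (rho 0.77, r 0.71). Without replicates 2, 4 and 5 the rho values were -0.58 and 0.70, and without the 2 tumors farthest from the median, cryoablation replicates 4 and 5, r was -0.73 and 0.80. Within the 9 controls rho was -0.58 and 0.92, and within the 8 cryoablation tumors -0.86 and 0.69. The slopes come from the same libraries and no p is given. The H1f10 difference after offsets for both trends is the 0.90 given above.

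**Figure D4:**
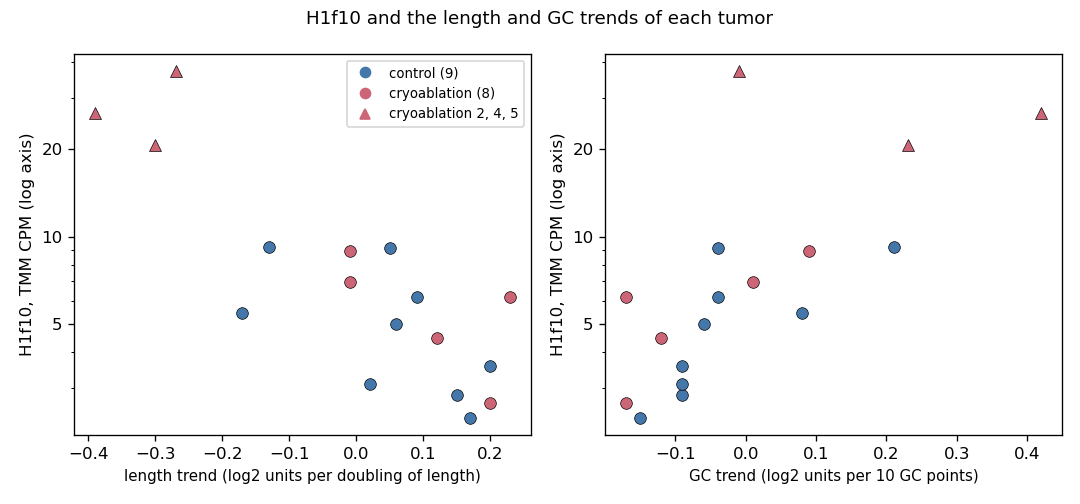
H1f10 (TMM-normalized CPM, log axis) against the length slope and the GC slope of each of 17 tumors. The 3 triangles, cryoablation replicates 2, 4 and 5, have the 3 lowest length slopes, and replicate 5 has the highest GC slope, 0.42.

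The genes whose levels ran most like H1f10 over the 17 tumors were Cenpv (Spearman rho 0.93), Lmbr1l (0.92), Nudt4 (0.92) and, tied at 0.91, Hrob, Ube2j2 and Ptov1. Cenpv encodes a centromere protein, and Hrob a factor that loads the MCM8-MCM9 helicase. Their rho was between 0.85 and 0.89 without replicates 2, 4 and 5. Genes running most against H1f10 were H2-T24 (rho -0.96), Ddx58 (-0.95) and Trim34a (-0.94), of which H2-T24 is a class I MHC gene and Ddx58 encodes the RNA sensor RIG-I. Within the 9 controls their rho lay between -0.90 and -0.88, and without replicates 2, 4 and 5 between -0.94 and -0.89. On FPKM values the rho of Nudt4 was 0.36 and that of Lmbr1l 0.76.

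Of the other 35 tested members, 33 had a rho above 0 with H1f10 and 27 a rho over 0.5 (77.1%), against 26.0% of all genes. On FPKM values 15 of the 35 were over 0.5 (42.9%), against 16.4% of all genes, and without replicates 2, 4 and 5 it was 18 (51.4%) against 21%. The highest were H2ac13 (0.84), H2ax (0.83), H2az2 (0.79) and H4c9 (0.79). The linker genes were at 0.70 for H1f3, 0.63 for H1f0 and 0.52 for H1f2, and H1f2 had a rho of 0.12 within controls. H2bc21 and H2bc8 ran the other way, at -0.19 and -0.40. All points share the same 17 libraries and their trends, so these values are a description.

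Genes that make, process, carry or accompany histones had medians near 0. Of 21 genes for histone mRNA synthesis and processing, 12 were above 0, the median log2 fold change was 0.03 and none had an unadjusted p under 0.05. The smallest p was that of Lsm10, a subunit of the U7 particle that cuts histone pre-mRNA (0.49, unadjusted p = 0.0721). Of 28 histone chaperones and remodelling subunits 20 were above 0, with a median of 0.09. Znhit1, a subunit of the SRCAP complex that deposits H2A.Z, was the one with an unadjusted p under 0.05, at 33.9 ± 12.4 CPM in controls (SD, n = 9) and 58.1 ± 37.3 after cryoablation (SD, n = 8), with a log2 fold change of 0.77 (exact permutation p = 0.128).

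Of 26 tested S-phase genes 13 were above 0, with a median of 0.02 and none under an unadjusted p of 0.05. The smallest p was that of Cdc45, a subunit of the replicative helicase (0.26, unadjusted p = 0.0651). Of 9 HMG chromatin proteins 7 were above 0, with a median of 0.11, and Hmgn3, a nucleosome-binding protein, had 0.50 (unadjusted p = 0.0354, exact permutation p = 0.112). Neither Znhit1 nor Hmgn3 kept an unadjusted p under 0.05 without replicates 2, 4 and 5. All adjusted p-values of the genes named from these lists were 0.728 in edgeR.

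Markers of other cell types also differed among these tumors. The summed erythroid markers ranged from 6.16 to 74.7 CPM in controls and from 25.1 to 175 CPM after cryoablation, and all 4 tested had an unadjusted p under 0.05, higher after cryoablation. Replicates 2, 4 and 5 had 142, 91.6 and 175 CPM. The adipocyte sum reached 264, 209 and 221 CPM in those tumors, against at most 174 in controls, with 3 of 7 tested markers higher at an unadjusted p under 0.05. The epidermis sum was 446, 409 and 669 CPM in them, against 186 to 446 in controls. All 4 tested epidermis markers were above 0, and 1 had an unadjusted p under 0.05 (Krt10, mean 2.50 CPM in controls and 4.18 after cryoablation). Krt14 made up most of the sum, at means of 287 and 326 CPM (log2 fold change 0.18, unadjusted p = 0.474). Krt1, Lor and Flg2 reached at most 5, 2 and 1 counts in a tumor. At an unadjusted p under 0.05, 2 of 4 tested neutrophil markers were higher (sums of 7.95 to 68.7 CPM in controls, 7.40 to 55.9 after cryoablation). At the same threshold 1 of 8 endothelium markers was higher (102 to 222 and 116 to 170 CPM), and 1 of 8 macrophage markers was lower (974 to 2700 and 751 to 3460 CPM). Whatever their p, 3 of 4 neutrophil, 2 of 8 endothelium and 3 of 8 macrophage markers were above 0. The macrophage sum in replicates 2, 4 and 5 was 3070, 2500 and 3460 CPM, so that 2 of them lay above every control. No tested T cell, fibroblast or skeletal muscle marker passed, with sums of 22.3 to 113, 7430 to 13300 and 2.72 to 151 CPM in controls and of 16.8 to 92.2, 5050 to 10000 and 3.98 to 61.9 CPM after cryoablation.

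The colon epithelium sum reached 142, 143 and 216 CPM in replicates 2, 4 and 5 against 16.9 to 97.5 CPM in controls, and 0 of 5 tested markers had an unadjusted p under 0.05. The keratin genes Krt8, Krt18 and Krt19 had log2 fold changes of 1.65, 2.01 and 1.85 (unadjusted p = 0.128, 0.0706 and 0.0600), and the median of the 5 was 1.65. Epcam had 0.65 (unadjusted p = 0.240). Cdh1 went the other way, at -0.35 (unadjusted p = 0.207), with means of 16.7 CPM in controls and 13.1 after cryoablation. Of the defining markers, Cdx2 had 0 counts in every tumor, and Vil1 and Krt20 had at most 11 and 7. The part that the makeup of the tumors or the library trends played in the histone values was not tested.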

How the data were processed

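The authors deposited 1 table of raw counts of reads per gene and of FPKM for 17 tumors, and groups were taken from the sample labels. No column was left unmapped (0 columns). The FPKM equalled the count divided by listed length and library total within 0.1% in 100% of values. The labels name the builds GRCm38 and mm10, but only 512 of 21827 shared genes had the positions of GENCODE M21, so no position is taken from the table. Sequences come from GENCODE M21 and RefSeq GRCm38.p6. The aligner, the counting program and strandedness are not given in the sources used here, nor is any origin of replicates beyond 1 tumor per label, so p-values measure the spread between these tumors.

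Counts were tested with edgeR 4.0.16 (R 4.3.3), by TMM normalization, filterByExpr and a quasi-likelihood F test in which the model held group alone, adjusted by Benjamini-Hochberg over 13005 genes. Standard errors were derived as the log2 fold change over the root of F. CPM are TMM-normalized. Named members other than H1f10 were also compared by two-sided exact permutation of log2 CPM (prior count 2) over 24310 splits, with 4.11e-05 the smallest possible p. The length and GC slopes are the slopes of a tumor's log2 CPM deviations on log2 gene length and on transcript GC content.

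The members, the lists and the tests were chosen with earlier results of these data known. Named were H1f10, the linker genes with reads, in each core family and the variants the most abundant and the largest and smallest change, members with an unadjusted p under 0.05, and in each pathway list the genes with such a p or the smallest p. The lists were histone mRNA synthesis and processing, histone chaperones, S-phase genes, HMG proteins, and markers of erythroid cells, neutrophils, T cells, macrophages, fibroblasts, endothelium, skeletal muscle, adipocytes, epidermis and colon epithelium. H2ac20, H2bc21, H3f3a, H2az1, Macroh2a1, H4f16, the single marker genes and the genes in levels or correlations beyond this rule were named after their values were seen.

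Alternatives were DESeq2 1.42.0, limma 3.58.1 voom with quality weights, DESeq2 size factors, no filter, a replicate block, length offsets, length and GC offsets (splines), leaving out each tumor, and leaving out cryoablation replicates 2, 4 and 5. Values by family and class without these 3 tumors, and counts of correlated members without them or on FPKM, were added after the data were seen. The scripts were tested on simulated counts.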

Additional observations from a re-analysis of the deposited data

Results flagged for a closer look

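Each group's highest and lowest tumor was set against its nearest neighbour for 22 named members, 44 groups in all. A gap larger than Dixon's 95% critical share of the whole range was marked, which chance gives in about 5% of groups. 3 groups were marked. H1f0 was at 1250 CPM in cryoablation replicate 4 and at 860 in the next tumor. H2ac13 was at 2.24 CPM in control replicate 1 and at 0.843 in the next. H4c4 was at 1.64 CPM in cryoablation replicate 4 and at 0.861 in the next.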

How the results depend on the processing

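DESeq2 and edgeR with DESeq2 size factors left the H1f10 difference, the counts of members and the counts of pathway genes within 1.5 times or 1 SD of the values reported, while H2ac15, at -0.01, turned to 0.02 and 0.00215. Shares of all genes were counted for the main fit only, so the counts of members in this section cannot be set against all genes. With limma voom and quality weights, 12 members had an unadjusted p under 0.05 and 3 (H1f3, H1f5 and H4c18) passed the fold threshold. H1f4 then turned to -0.09 and H2bc8 to 0.42. The pathway counts were 2 for histone mRNA processing, 1 for S phase and 0 for HMG proteins. Without a filter, 49 of 67 members were above 0 and 1 passed the fold threshold (H1f1, with at most 4 counts), and H1f4 was at -0.00254. With length offsets 1 member had an unadjusted p under 0.05, with 2 chaperones and 1 S-phase gene, and H1f4 and H2ac8 turned to -0.20 and -0.05. With length and GC offsets 1 member had it, with 2 chaperones, 1 S-phase gene and 1 mRNA processing gene, and H1f4, H2ac8, H3c11 and H4c8 turned to -0.19, -0.06, -0.07 and -0.03.

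Without cryoablation replicates 2, 4 and 5 the H1f10 difference was 0.16, 18 of 37 members were above 0 with a median of -0.01, 3 had an unadjusted p under 0.05 and 1 passed the fold threshold, and 0 chaperones and 0 HMG genes had such a p. H1f4, H2ac8, H2ax, H2az2, H2bc8, H3c3, H4c8 and H4c9 turned to -0.85, -0.33, -0.02, -0.17, 0.21, -0.11, -0.95 and -0.10.

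Leaving out 1 tumor at a time gave 2 (without cryoablation replicate 4) to 11 (without control replicate 1) members with an unadjusted p under 0.05, 0 to 2 members past the fold threshold (H2ac13 and H4c18, without control replicate 1), and an H1f10 difference of 1.06 to 1.59. It gave 26 to 31 members above 0, medians of 0.29 to 0.49, 0 to 2 mRNA processing genes, 0 to 2 chaperones, 0 to 3 S-phase genes and 0 to 2 HMG genes. H1f4 ranged from -0.37 to 0.26, H2ac15 from -0.34 to 0.31 and H2bc8 from -0.26 to 0.07. Of the 6 members with an unadjusted p under 0.05, H3c4 kept it without any single tumor. H1f0 lost it without cryoablation replicate 4 (0.23) and H1f2 without cryoablation replicate 8 (0.41), while H1f3, H2ax and H4c12 each lost it without several tumors, controls among them.

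The tumors were not treated as paired by replicate number. Of 8 such pairs, 4 had a correlation over 0.1, and the values ran from -0.51 to 0.642. In 2 pairs both tumors were closest to their own number. These values cannot show whether tumors with the same number shared a cage, a day or a batch. With a replicate block, 2 members (H1f3 and H3c4) had an unadjusted p under 0.05, with 0 chaperones and 0 HMG genes, and H1f4 and H2ac15 were at -0.23 and 0.06. The cause of these changes was not tested. Most core members had a few counts per tumor, which limits their precision.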

Other observations

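Of the 36 tested members, 24 had their highest CPM in cryoablation replicate 2, 4 or 5. The same count was not made over all genes or over genes as short, so it cannot be set against them. H1f10, chosen by its fold change, is among the 24. Over the 17 tumors the median Spearman rho between members was 0.52 within the linker genes (15 pairs), 0.51 within the core genes (253 pairs) and 0.65 within the variants (21 pairs). Between classes it was 0.53 for linker with core genes, 0.56 for linker with variant genes and 0.54 for core with variant genes. The lowest value, -0.61, was between a pair of core genes. The pairs share the same libraries, so these values are a description.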
